A study of Mus musculus with 20 samples.

Results

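Long amosite asbestos (LFA) was compared with long carbon nanotubes (NTL), the pair of long fibers in the study, by the RNA of the mouse diaphragm. The comparison takes 8 of the 20 arrays of the series, the 4 labeled LFA and the 4 labeled NTL, with 1 array for each mouse. All mice were female and of the C57Bl/6 strain, were 8 weeks old when the fibers were injected into the pleural cavity, and had their diaphragms taken 12 weeks later. The LFA mice received 25 µg of South African amosite enriched for long fibers, and the NTL mice received 5 µg of long straight nanotubes. The other 12 arrays came from mice given shortened amosite (SFA, 25 µg), short nanotubes (NTS, 5 µg), or the vehicle, saline with bovine serum albumin (control), with 4 mice in each group and the vehicle common to all. Material and mass were changed together, so an effect of the material and an effect of the dose cannot be told apart. The question of the comparison is which genes and functions lean to one of the materials.

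Fibers that are too long for a macrophage to engulf are held back at the openings through which the pleural space drains, and they keep macrophages in a state of frustrated phagocytosis that feeds inflammation, growth of mesothelial cells, and scarring. Amosite is an iron-rich silicate, and iron on the surface of asbestos can catalyze the formation of oxygen radicals, whereas carbon nanotubes carry metal only as residue of their synthesis. The diaphragm is a sheet of skeletal muscle covered by mesothelium, so its RNA holds muscle, mesothelium, and the inflammatory lesion together.

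A level here is a probe's log2 intensity minus that of the 75th percentile on the same array, and a difference is LFA minus NTL on the same log2 scale. The tests took the 36920 of 55681 probes whose signal the scanner software marked as well above background on 4 or more arrays of the 20. Per array, this mark was set on 52.9% to 68.0% of spots. Called means a Benjamini-Hochberg adjusted p under 0.05 by limma with a difference of at least 2-fold. The defining transcripts of the tissue were present, and the mean level of 20 skeletal muscle genes ran from 6.08 to 6.54 over the 8 mice. Each mouse is a replicate, and the p-values measure the spread between mice. In bulk tissue, fewer cells of a type and less RNA per cell cannot be told apart.

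No probe was called between LFA and NTL (0%; smallest adjusted p = 0.787, limma). At an unadjusted p under 0.05 there were 569 probes (1.54%). Without LFA mouse 2, 6 probes were called, all higher in NTL. For comparison, 1462 probes (3.96%) were called between LFA and the control mice, 816 higher (2.21%) and 646 lower (1.75%), and 2511 (6.8%) were called between NTL and the same control mice, 1344 higher (3.64%) and 1167 lower (3.16%). Single mice moved the counts against control: for LFA it was 467, 634, and 860 without LFA mice 2, 4, and 1, 659 and 836 without control mice 1 and 4, and 2682 without NTS mouse 4, which entered only through the shared spread, and for NTL it was 1557 and 1399 without NTL mice 1 and 4. The NTL arrays resembled one another more closely than the LFA arrays did, with a median Pearson r of 0.967 within NTL and 0.942 within LFA. NTL mice 2, 3, and 4 shared slide 3 and its scan day. LFA mice 1 and 2 lay on slides 2 and 3, and LFA mice 3 and 4 on slide 1. Likeness of the mice therefore cannot be told apart from a shared slide. An LFA array and an NTL array correlated at a median of 0.961, inside the range of the pairs within LFA (0.900 to 0.963).

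That no probe was called does not show that the materials act alike. The 95% interval of a difference had a median half-width of 0.84, and for 15468 probes (41.9%) it lay wholly within 2-fold in either direction. For the other probes the interval reached beyond 2-fold. Data were also simulated with each probe's spread in these arrays and with noise drawn independently for every probe and array. There, 16% of probes changed by 1 (log2) between LFA and NTL were called, against 68% for a change of 2 and 76% for a change of 3. Deviations that probes share within an array were not simulated, so these shares may not hold for the real arrays. The difference over all tested probes had a median of -0.03, with the 5th percentile at -0.80 and the 95th at 0.68. The means differed by at least 2-fold for 1809 probes (826 higher in LFA, 983 higher in NTL) and by at least 4-fold for 95.

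Probes whose 4 LFA and 4 NTL levels do not overlap are those in which all mice of a group lie above all mice of the other. There were 349 of them among 36835 probes with all 8 values (0.947%), 143 with LFA higher (0.388%) and 206 with NTL higher (0.559%). With a difference of at least 2-fold as well, there were 33 probes on the LFA side (0.0896%) and 39 on the NTL side (0.106%). Of these, 22 on the LFA side and 21 on the NTL side have a gene name, and the others detect long intergenic noncoding RNAs or carry no name. By gene, with the brightest probe for each, 68 of 17435 genes separated with LFA higher (0.39%) and 79 with NTL higher (0.453%). These counts describe the arrays and are not called differences. A random split of the mice would also separate some probes, so separation alone does not show an effect of the fiber.

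**Figure D1:**
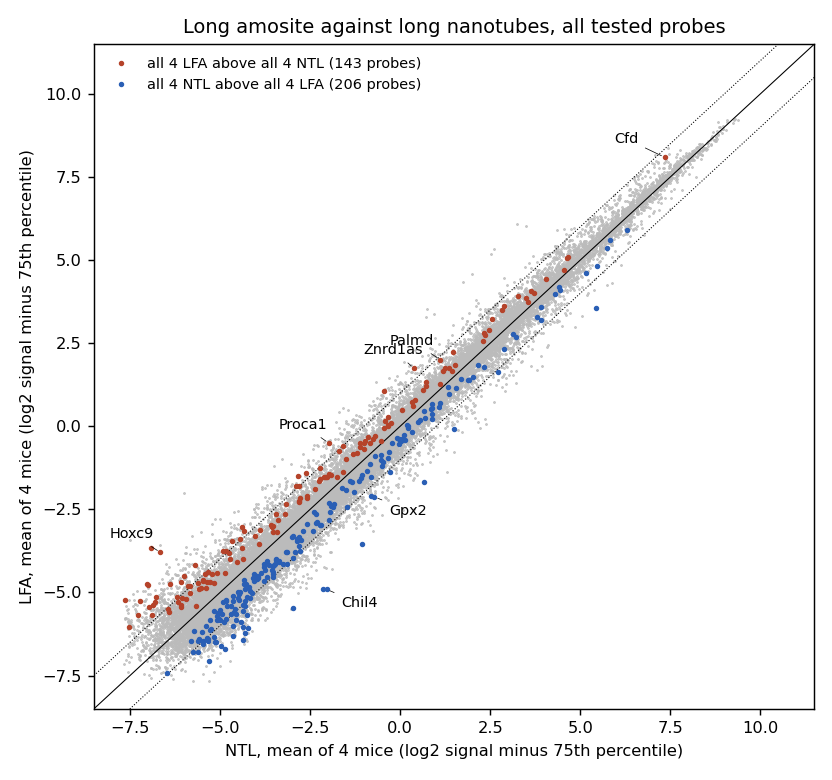
Mean level of each tested probe in the NTL mice (horizontal) and the LFA mice (vertical), both as log2 signal minus the 75th percentile of the array, 4 mice each. The solid line marks equal levels and the dotted lines 2-fold; red marks the 143 probes and blue the 206 probes whose 8 mice do not overlap, which lie close to the dotted lines or between them except at low levels.

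Chil4 gave the largest difference toward nanotubes among the named genes that separated the groups. It encodes the chitinase-like protein Ym2, a secreted product of alternatively activated macrophages and of mouse airway epithelium. The LFA mice had levels of -4.25, -4.64, -6.42, and -4.32, and the NTL mice had levels of -1.44, -2.74, -1.73, and -2.26. Every NTL mouse was therefore above every LFA mouse. The means were -4.91 ± 1.02 and -2.04 ± 0.58 (SD, n = 4 each), a difference of -2.87 with a 95% interval from -3.92 to -1.81. LFA mouse 3 was not well above background, so the LFA mean rests in part on signal near background, and without that mouse the difference was -2.36. By limma this was the smallest p of the comparison, and it did not pass the adjustment over all probes (unadjusted p = 2.1e-05, adjusted p = 0.787). Against control (-5.13), NTL was higher by 3.09 (adjusted p = 0.0013, limma) and LFA by 0.23 (adjusted p = 0.80). The probe lies at chr3:106006584-106006643 on the reverse strand (NCBI37). Its difference was -2.82 between the single mouse of each group on slide 2 and -2.40 on slide 3 (1 LFA mouse, 3 NTL mice), and it was -1.45 with another background correction (normexp), which pulls in dim probes.

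Chil3, the neighboring gene for the chitinase-like protein Ym1, is the usual marker of alternatively activated macrophages in the mouse. Its levels were 2.0, 2.14, 1.06, and 2.20 in LFA and 3.43, 3.76, 0.60, and 3.04 in NTL. NTL mice 1, 2, and 4 were above all LFA mice, and NTL mouse 3 was below all of them. The difference was -0.86 (95% interval -2.66 to 0.94), and -1.56 without NTL mouse 3. The genes lie side by side and share most of their sequence, and the bases before their transcription starts are shown because the pair behaved differently in the same mice. Of 223 aligned columns, 201 match (90.1%), 20 hold different bases, and 2 hold a gap. Capitals mark the bases that differ or face a gap. The first 28 bases of the Chil3 window and the last 28 of the Chil4 window lie outside the alignment and are in lower case. Both windows hold the 250 bases before the start on the reverse strand (RefSeq, GRCm38.p6), at chr3:106167565-106167814 for Chil3 and chr3:106219480-106219729 for Chil4.
Chil3: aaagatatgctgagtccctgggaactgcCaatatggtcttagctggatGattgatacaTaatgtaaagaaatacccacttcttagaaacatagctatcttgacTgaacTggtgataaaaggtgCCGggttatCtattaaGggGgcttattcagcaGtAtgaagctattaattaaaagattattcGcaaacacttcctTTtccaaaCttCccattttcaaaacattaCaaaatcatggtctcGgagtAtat
Chil4: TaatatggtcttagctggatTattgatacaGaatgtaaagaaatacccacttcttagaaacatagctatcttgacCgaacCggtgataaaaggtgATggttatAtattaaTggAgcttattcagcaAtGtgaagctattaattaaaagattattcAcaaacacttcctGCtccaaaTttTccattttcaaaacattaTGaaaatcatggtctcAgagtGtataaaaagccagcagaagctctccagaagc
The 60-base array probes of the pair lie at different places of the transcripts and differ at 46 of their 60 positions, so they are not aligned copies of each other. Signal from one transcript on the other's probe was not tested.

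Hoxc9 gave the largest difference toward asbestos among the separating genes that were well above background in all LFA mice. It is a homeobox transcription factor of the posterior body axis, expressed in connective tissue and fat of the trunk. Its levels were -3.39, -4.10, -3.29, and -4.41 in the LFA mice and -5.19, -7.11, -7.01, and -7.31 in the NTL mice. The groups did not overlap, and NTL mouse 1 stood nearest to LFA. The probe was well above background in all 4 LFA mice and in 1 of 4 NTL mice, so the NTL mean of -6.65 ± 0.99 rests largely on signal near background. The difference was 2.86 (95% interval 1.70 to 4.02), with 1.80 and 3.04 within slides 2 and 3. Control was at -2.88, and NTL was lower than control by 3.78 on the log2 scale (difference -3.78, adjusted p = 5.1e-04, limma) while LFA differed by -0.92 (adjusted p = 0.31). With the normexp background correction the difference between LFA and NTL was 0.73. The probe lies at chr15:102814735-102814794 on the forward strand (NCBI37). Other Hox genes were looked up after this value was seen. Hoxb8 separated the mice in the same direction, with a difference of 0.82 (-2.67, -1.99, -2.19, and -2.56 in LFA and -3.37, -3.23, -2.77, and -3.34 in NTL). Hoxc6, Hoxc8, Hoxc10, and Hoxa9 had differences of 0.05, 0.17, 1.05, and -0.12 with overlapping mice. Hoxb9 and Hoxd9 were also looked up, and no values are given for them.

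The other genes that separated with LFA higher were few and of unlike function. Proca1 had levels of -1.01, -0.55, 0.22, and -0.72 in LFA and -2.16, -1.64, -2.68, and -1.41 in NTL, a difference of 1.46. For Znrd1as, an antisense RNA of Znrd1, the levels were 1.40, 1.15, 2.42, and 2.0 against 0.76, 0.31, -0.40, and 0.88, a difference of 1.36. For Palmd, which encodes a cytosolic protein of muscle, they were 1.78, 1.70, 2.66, and 1.89 against 1.18, 1.43, 0.32, and 1.5, a difference of 0.90. These 3 were well above background in all 8 mice, and in each of them it was NTL that lay away from control, at -1.95 (adjusted p = 0.010), -1.79 (adjusted p = 0.0059), and -1.45 (adjusted p = 0.0047) by limma. LFA differed from control by -0.49, -0.43, and -0.55, with adjusted p from 0.25 to 0.50. Gna14, a G protein subunit, differed by 1.06; Mesp2, a transcription factor of somites, by 1.19; and Tchh, trichohyalin of hair follicles, by 1.05. Lcn11, a lipocalin, had no NTL mouse well above background, and LFA was higher by at least 1.60-fold. Svs5, a seminal vesicle protein, had overlapping mice, with LFA mouse 2 at -5.92 between NTL values of -5.60 and -7.56, and it was well above background in 3 LFA mice and 0 NTL mice.

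Drc1, Rsph4a, and Ccdc173 among the separating genes belong to the axoneme of motile cilia. Drc1 is part of the dynein regulatory complex and differed by 1.36, Rsph4a is a radial spoke protein and differed by 1.17, and Ccdc173 differed by 0.95. A list of motile cilium genes was drawn up after these were seen, and 14 of its 15 tested members were higher in LFA, with a median difference of 0.35 and Hydin as the exception (-0.31). The mean level of the 15 genes was -2.67, -2.74, -2.57, and -2.57 in LFA and -2.85, -3.05, -3.40, and -3.09 in NTL. The 4 LFA mice were above the 4 NTL mice, and the control mice lay between -2.73 and -2.04. Drc1 and Ccdc173 were well above background in 3 of 4 NTL mice, as was Tchh. All these levels are low, and because the list was made from genes already seen to differ, its count carries no test.

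On the nanotube side, the separating genes with the largest differences after Chil4 were Mt4 (-2.76) and Lce1c (-2.48), a metallothionein of squamous epithelium and a protein of the cornified envelope of skin. Mt4 had levels of -4.49, -4.56, -5.29, and -5.25 in LFA and -4.31, -3.47, 1.60, and -2.37 in NTL. Both probes were well above background in 2 of 4 LFA mice and in all NTL mice, so the size of these differences rests in part on signal near background. NTL mouse 3 was far above the rest, and without it the differences were -1.51 for Mt4 and -1.08 for Lce1c. The same mouse carried other skin transcripts: Lor, Krtdap, and Krt5, the loricrin, keratinocyte differentiation, and basal keratin genes, differed by -1.86, -2.06, and -2.26, while Krt14 and Krt10, also keratins of skin, had differences of 0.65 and 0.23 and Krt2 was at -3.04 in that mouse, within the range of the others. The mean of 10 epidermal genes, listed after this was seen, was 1.51 in NTL mouse 3 and between -3.27 and -2.79 in the other 7 mice. Among the 12 mice of the other groups, SFA mouse 2 had a mean of 1.31, and the rest lay between -3.08 and -1.79. The part of these transcripts in the differences of other genes was not tested.

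Gpx2, a glutathione peroxidase of epithelia and a target of the antioxidant regulator NRF2, had levels of -2.28, -1.66, -2.64, and -1.91 in LFA and -1.20, -1.16, 0.62, and -1.13 in NTL. All NTL mice were higher, by 1.41 on average (difference -1.41), and by 0.96 without NTL mouse 3 (-0.96). Cuzd1, a membrane protein with a zona pellucida domain, differed by -1.10, Sh2d1b1, an adapter of natural killer cells, by -0.97, and Eipr1, a protein of endosome recycling, by -0.96. Plekhh2 was not well above background in any LFA mouse and was at least 1.60-fold higher in NTL. Against control, Sh2d1b1 was higher in NTL by 2.05 (adjusted p = 0.011) and in LFA by 1.08 (adjusted p = 0.17, limma). The remaining separating genes named by the rule, 4833411C07Rik toward LFA and 4933413J09Rik, Vsig10l, Bhlhb9, and 1700086O06Rik toward NTL, had differences of 1.35, -1.03, -1.01, -1.01, and -0.96. Cuzd1 and 1700086O06Rik were well above background in 2 LFA mice, 4933413J09Rik in 1, and Bhlhb9 in 3, and all of these in all NTL mice. For a pair of further genes the probes disagreed. Siglech, a receptor of plasmacytoid dendritic cells, had a bright probe with a difference of 0.01 and a dim one with 1.21. One Rgs9bp probe had a difference of -0.21, and the other separated the groups with NTL higher but was not well above background in any LFA mouse.

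**Figure D2:**
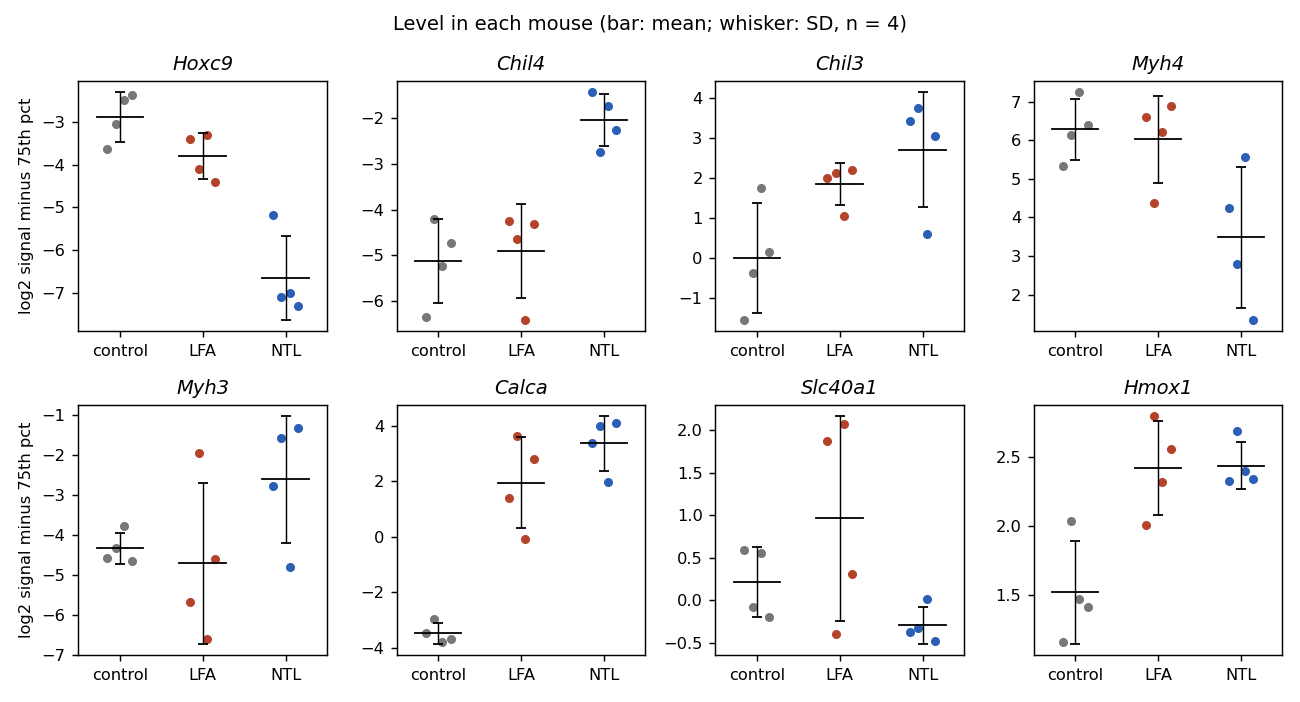
Level of 8 genes in each control, LFA, and NTL mouse (vertical axis: log2 signal minus the 75th percentile of the array; points: mice; bar: mean; whisker: SD, n = 4). Hoxc9 and Chil4 separate LFA from NTL with the LFA mice near control, Myh4, Myh3, Calca, and Slc40a1 overlap with wide spread, and Hmox1 is at the same level in both fiber groups.

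A probe for a long intergenic noncoding RNA was tested in 8070 cases. Of these, 78 separated the groups, 31 with LFA higher and 47 with NTL higher. This share was close to that of all probes, where 349 of 36835 separated (0.947%), 143 with LFA higher and 206 with NTL higher. A few noncoding RNA probes with large differences were picked after their values were seen. They are part of the top probes in each direction, and not all chromosomes were searched. Each is shown as the 60 bases of the array design in lower case with its NCBI37 position. A_30_P01030603 (chr1:58440827-58440886, reverse) was higher in LFA by at least 1.5-fold and not well above background in any NTL mouse. A_30_P01026994 (chr1:63316065-63316124, forward) and A_30_P01033087 (chr4:101018960-101019019, reverse) were higher in NTL, with differences of -1.85 and -1.42, and were well above background in 2 LFA mice and in all NTL mice. For A_30_P01033087 the groups nearly touched, at -4.799 in LFA mouse 2 and -4.797 in NTL mouse 2.
A_30_P01030603: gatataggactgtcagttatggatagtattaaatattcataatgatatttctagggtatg
A_30_P01026994: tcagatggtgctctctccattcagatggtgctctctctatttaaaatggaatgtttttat
A_30_P01033087: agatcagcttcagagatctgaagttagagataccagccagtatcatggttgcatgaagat
None of these was called.

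On chromosome 11, 3 neighboring probes on the reverse strand separated the groups, all with LFA higher. They lie within a noncoding RNA region of the array design (chr11:112898724-113062945, NCBI37) that 12 probes cover, 8 on the reverse and 4 on the forward strand.
A_30_P01018710: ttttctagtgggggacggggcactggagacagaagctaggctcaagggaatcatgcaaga
A_30_P01026259: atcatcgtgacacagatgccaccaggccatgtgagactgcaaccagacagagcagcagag
A_30_P01022817: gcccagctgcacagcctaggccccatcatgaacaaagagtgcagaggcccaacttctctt
A_30_P01018710 (chr11:112917303-112917362) had levels of -1.48, -1.11, -1.18, and -1.30 in LFA and -2.16, -2.04, -2.68, and -1.97 in NTL, a difference of 0.95 ± 0.27 (SE). A_30_P01026259 (chr11:112917418-112917477) had -1.80, -1.62, -2.01, and -1.77 against -2.71, -3.06, -3.09, and -2.67, a difference of 1.08 ± 0.31. A_30_P01022817 (chr11:112917478-112917537) differed by 0.58 ± 0.25. Within each of these probes the LFA mice lay close together and above all NTL mice. Both fiber groups had means below control. NTL differed from control by -1.62, -1.80, and -1.28 in the 3 probes (adjusted p from 0.0014 to 0.0044, limma). LFA differed from control by -0.67, -0.72, and -0.70 (adjusted p from 0.10 to 0.16, limma). The forward-strand probe A_30_P01025860 over nearly the same bases (chr11:112917477-112917536) had a difference of -0.43 with overlapping mice. Farther along the reverse strand, A_30_P01020019 (chr11:112899476-112899535) pointed the other way, with 1.58, 3.55, 0.08, and 1.02 in LFA, 3.22, 2.76, 3.70, and 2.80 in NTL, and a difference of -1.56. The 3 probes were singled out after their values were seen, and they share transcripts or sequence neighborhood, so they are not separate results.

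Some muscle genes had wide differences. Myh4, the myosin heavy chain of the fastest muscle fibers, had levels of 6.61, 4.37, 6.22, and 6.90 in LFA and 4.24, 2.79, 5.56, and 1.35 in NTL. The lowest LFA mouse lay within the NTL range. The difference was 2.54, or 2.37 and 1.13 within slides 2 and 3, with a 95% interval of 0.74 to 4.34 (limma, unadjusted p = 0.0083), and LFA was near control (6.28). The other adult myosins were nearly level, with differences of 0.38 for Myh1, -0.05 for Myh2, and 0.03 for slow Myh7. Embryonic Myh3, well above background in 2 LFA mice and all NTL mice, had -5.68, -1.96, -6.61, and -4.60 in LFA against -2.77, -1.56, -4.80, and -1.32 in NTL, a difference of -2.10 that was -0.67 without LFA mice 1 and 3. Of 19 tested genes of muscle regeneration and denervation, 18 were higher in NTL, 0 were called, and the median was -0.32; Chrng, the fetal subunit of the acetylcholine receptor, differed by -1.30 and Myog, a myogenic regulator, by -0.45. The median of this list was -0.04 without LFA mice 1 and 3. Pdk4, which turns muscle from glucose to fat as fuel, was higher in LFA by 1.04 (unadjusted p = 0.012), and against control it was lower in NTL (-1.80, adjusted p = 0.0065) with LFA at -0.76 (adjusted p = 0.22, limma). Among 22 fatty acid oxidation genes, 16 were higher in LFA (median 0.20; -0.07 without LFA mice 1 and 3).

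Before the gene groups are read, the mice that stand apart have to be named. LFA mice 1 and 3 carried liver transcripts: their mean level over 19 liver genes was 6.49 and 6.79, against -1.21 and -0.98 in LFA mice 2 and 4 and 2.42, 0.13, 3.88, and 3.46 in the NTL mice. The control mice lay at 3.74, -0.24, -0.87, and 0.11. Alb, serum albumin, shows the same with 8.85, -1.0, 9.47, and -0.22 in LFA and 5.42, 2.11, 7.16, and 6.44 in NTL. On LFA mouse 3 and NTL mouse 2 a group of 511 probes (1.38% of those tested) was low, as it was on 1 array of each other group, and none of these probes separated LFA from NTL. The medians of the gene groups are given with and without LFA mice 1 and 3. Leaving these mice out does not balance the liver transcripts. The median difference of the 19 liver genes was 0.10 with them. Without them it was -4.58, with 1 gene higher in LFA and 18 in NTL. The mean of the liver list was also used as a covariate. The medians were then -0.44 (alternatively activated macrophage), -0.34 (macrophage), -0.41 (collagen), and 0.46 (adipocyte). Without the covariate they were -0.46, -0.35, -0.44, and 0.49. Whether the liver transcripts caused any of the differences was not tested. Over all 17476 tested genes, 9390 (53.7%) had a higher mean in LFA and the median difference was 0.03, which is the background for the counts below. The lists share genes, none of the 47 lists had a called gene, and the mean level of none of them separated the 4 LFA from the 4 NTL mice; the motile cilium list above, made after its genes were seen, is not one of the 47.

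No macrophage gene was called, and the lean of the macrophage lists toward nanotubes was absent without LFA mice 1 and 3. Of 19 alternatively activated macrophage genes, 18 had the higher mean in NTL, with a median difference of -0.46; Chil4 leads, and the resistin-like Retnla and the lectin Mgl2 had differences of -0.60 and -0.53. The arginase Arg1 had a difference of -0.54 ± 1.56 (SE), which was 0.25 and 0.18 within slides 2 and 3 and ran from -0.92 to -0.15 when single mice were left out. The interleukin gene Il4 was the exception (0.41). The mean of the list was 0.95, 1.46, 0.76, and 1.32 in LFA and 1.78, 1.85, 1.31, and 1.73 in NTL, so that LFA mice 2 and 4 overlapped with NTL mouse 3. Of 19 general macrophage genes, 18 were higher in NTL (median -0.35), among them the scavenger receptor Cd163 (-1.13, well above background in 2 LFA and 3 NTL mice), the lysozyme Lyz2 (-0.59), and Cd68 (-0.44). Without LFA mice 1 and 3 both medians were close to 0 (0.03 and 0.08), with 10 and 11 of 19 genes higher in LFA. With slide as a block they were -0.43 and -0.30. Itgax, the integrin of dendritic cells and lipid-laden macrophages, differed by -1.08 and Gpnmb, a glycoprotein of the same cells, by -1.34, and for both NTL mouse 3 was far above the other NTL mice (4.62 for Gpnmb, whose difference was -0.54 without it). Mmp12, macrophage elastase, had LFA mice between -6.33 and 0.82 and NTL mice between -2.44 and 1.92.

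No gene of scar matrix was called either. Of 22 collagen chains, 20 were higher in NTL, with a median of -0.44. Col1a1, the main fibrillar collagen, had 5.15, 7.04, 5.55, and 6.04 in LFA and 6.50, 7.10, 5.99, and 6.55 in NTL, a difference of -0.59 (95% interval -1.38 to 0.20). LFA mouse 2 was level with the highest NTL mouse, and LFA mice 1 and 3 were below all NTL mice. Col3a1 and Col12a1 differed by -0.44 and -1.18, and Col18a1 by 0.82, while Col10a1 was well above background in 1 LFA mouse and 0 NTL mice. Of 25 TGF-beta and myofibroblast genes, 22 were higher in NTL (median -0.22), with the matricellular protein Postn at -0.68. Without LFA mice 1 and 3 the medians were 0.05 and 0.18, and with slide as a block that of the collagens was -0.24. MHC class II genes, which present antigen, were higher in NTL in 15 of 16 cases (median -0.39; -0.01 without these mice), with Cd74 at -0.52.

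**Figure D3:**
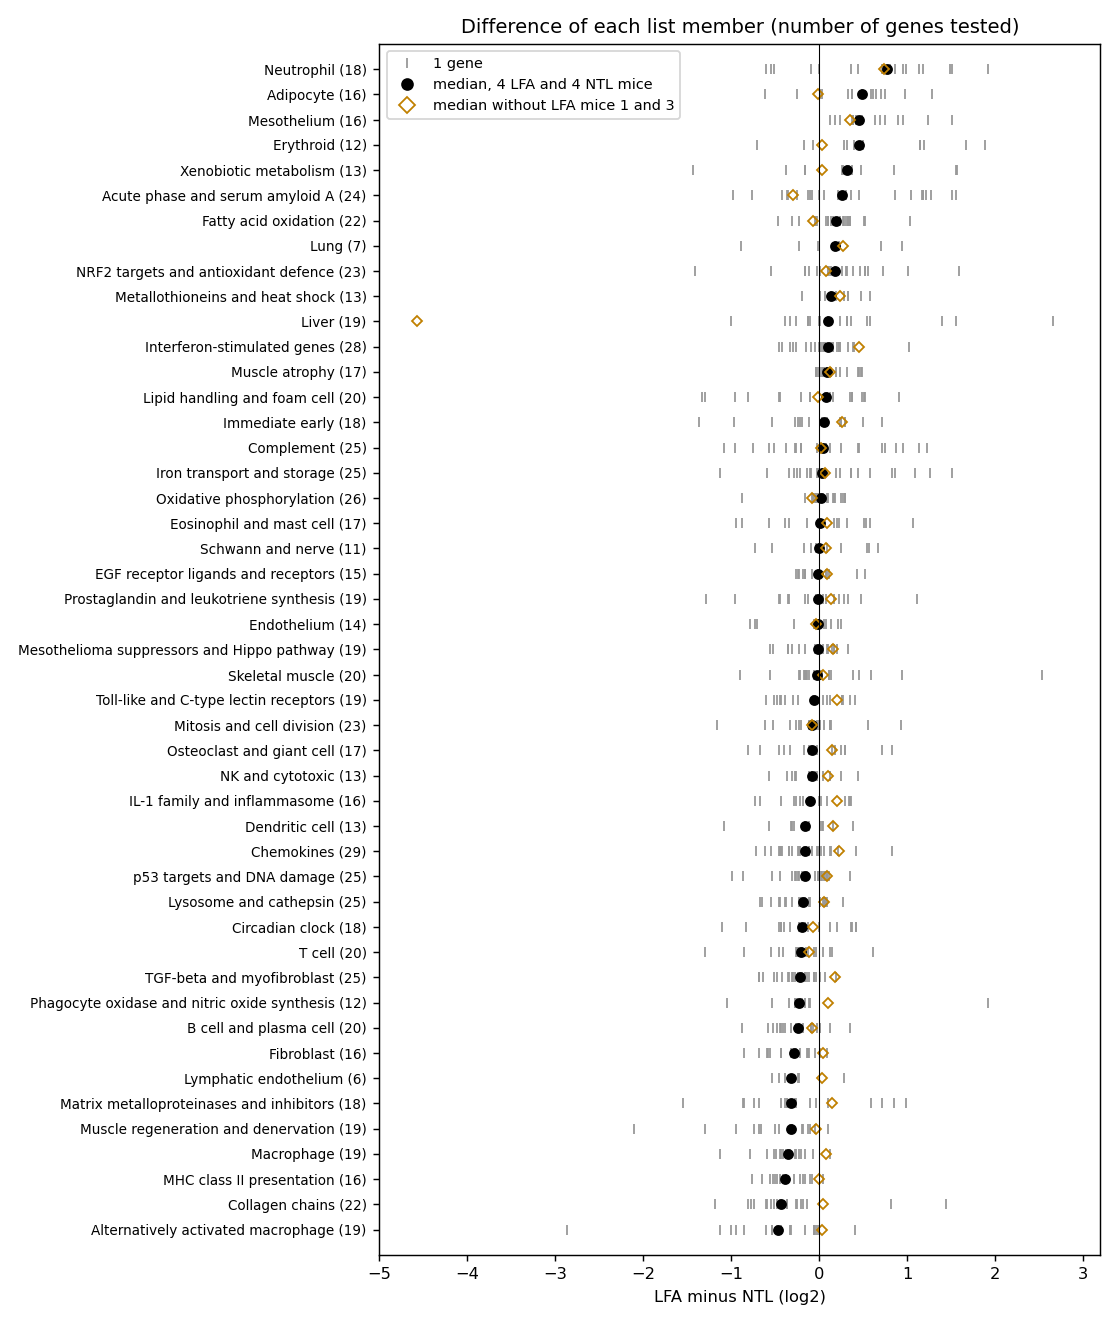
Difference of LFA minus NTL (horizontal axis, log2) for every tested gene of 47 lists, with the number of genes in brackets; gray ticks are genes, black circles the list medians over 4 and 4 mice, and open diamonds the medians without LFA mice 1 and 3. The medians of the macrophage, collagen, adipocyte, and erythroid lists move close to 0 without these mice, and those of the neutrophil and mesothelium lists stay above 0.

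No neutrophil or mesothelial gene was called, and both list medians were above 0 with and without LFA mice 1 and 3. Of 18 neutrophil genes, 13 had the higher mean in LFA, with a median of 0.77 (0.74 without LFA mice 1 and 3, and 0.54 to 0.97 over all alternatives). The granule genes Mpo (myeloperoxidase), Ltf (lactoferrin), and Camp (cathelicidin) differed by 1.92, 1.52, and 1.49, and the calprotectin genes S100a9 and S100a8 by 1.18 and 0.95. Elane (-0.61) and Ly6g (-0.55), granule elastase and the surface marker of mature neutrophils, leaned the other way. The mean of the list was 0.57, 0.82, -0.44, and -0.25 in LFA and -0.88, -0.22, -0.39, and -0.44 in NTL, so the difference came from LFA mice 1 and 2, and LFA mice 3 and 4 lay within the NTL range. S100a8 had 4.02, 3.99, 2.58, and 2.93 in LFA and 1.56, 3.21, 2.66, and 2.27 in NTL, a difference of 0.95 (95% interval -0.63 to 2.53). Control mice ranged from -1.66 to 0.45 for the list mean, which spans nearly all fiber mice.

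All 16 tested mesothelial genes had the higher mean in LFA, with a median of 0.46, and 13 of 16 did so without LFA mice 1 and 3 (median 0.35). Msln, mesothelin of the mesothelial surface, had 5.39, 4.60, 5.93, and 5.98 in LFA and 4.90, 5.17, 4.73, and 4.54 in NTL, a difference of 0.64 (95% interval -0.08 to 1.36). LFA mice 1, 3, and 4 were above all NTL mice, and LFA mouse 2 was within the NTL range. The mean of the list showed the same, with 2.32, 1.05, 2.24, and 2.43 in LFA and 1.39, 1.39, 1.67, and 1.17 in NTL. The keratins Krt18, Krt8, and Krt19 differed by 1.51, 1.24, and 0.95 (Krt18 by 0.64 without LFA mice 1 and 3 and by 0.55 with slide as a block), the tight junction protein Cldn15 by 0.89, and Muc16, the mesothelial mucin, by 0.75. Krt8 and Krt18 are also made by hepatocytes. Wt1, the transcription factor that marks mesothelium, differed by 0.23 (95% interval -0.61 to 1.07), with 3.66, 3.50, 4.10, and 4.26 in LFA and 3.36, 4.38, 3.37, and 3.47 in NTL. Control mice had list means of 1.32 to 1.88, which overlap the NTL mice and lie below LFA mice 1, 3, and 4. With slide as a block the medians were 0.73 for the neutrophil list and 0.36 for the mesothelium list.

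No fat or red cell gene was called. Of 16 adipocyte genes, 14 were higher in LFA (median 0.49; -0.01 without these mice). Cfd, adipsin, was the member whose mice did not overlap, with 8.06, 7.84, 8.14, and 8.33 in LFA and 7.49, 7.76, 7.47, and 6.66 in NTL, a difference of 0.75 (95% interval -0.05 to 1.54). Of 12 erythroid genes, 9 were higher in LFA (median 0.45; 0.03 without these mice), with the membrane protein Rhag well above background in 2 LFA mice and 0 NTL mice. Among the lists not described here, medians ran from -0.32 for matrix metalloproteinases and their inhibitors (18 genes; 0.14 without LFA mice 1 and 3) to 0.32 for xenobiotic metabolism (13 genes; 0.03 without them).

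**Figure D4:**
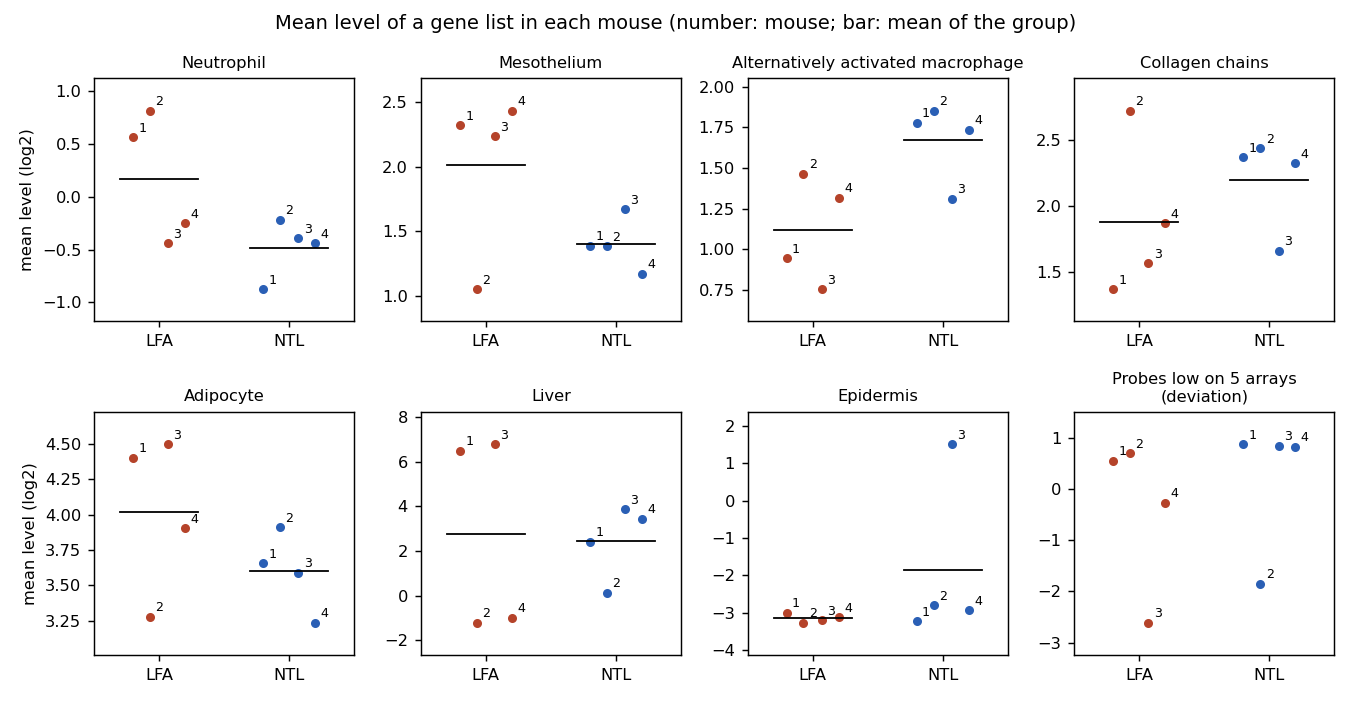
Mean level (vertical axis, log2) of 7 gene lists in each LFA and NTL mouse, numbered by mouse, with a bar at the group mean, and, in the last panel, the median deviation of the probes that were low on 5 arrays of the series. LFA mice 1 and 3 are the highest for liver genes and the lowest for alternatively activated macrophage and collagen genes, LFA mouse 2 is the lowest for mesothelial genes, and NTL mouse 3 stands apart for epidermal genes.

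Iron handling and antioxidant defense were listed because amosite contains iron. Of 25 iron genes, 14 were higher in LFA and 11 in NTL (median 0.04, and -0.06 with slide as a block), and the ferritin chains Fth1 and Ftl1 differed by 0.04 and 0.00. Tfrc, the transferrin receptor that falls when cells are rich in iron, differed by -0.14 (95% interval -0.79 to 0.51). Slc40a1, the iron exporter ferroportin, had 1.87, -0.40, 2.07, and 0.31 in LFA and -0.38, -0.33, 0.02, and -0.49 in NTL, a difference of 1.26 that came from LFA mice 1 and 3 and was 0.25 without them. Hmox1, heme oxygenase, had 2.0, 2.80, 2.32, and 2.56 in LFA and 2.33, 2.69, 2.40, and 2.34 in NTL, a difference of -0.02 (95% interval -0.57 to 0.53), and Nqo1, a quinone reductase driven by NRF2, differed by -0.16 (95% interval -0.68 to 0.37). For these probes of Hmox1, Nqo1, and Tfrc, the brightest of each gene, the interval excludes a 2-fold difference in either direction. This does not extend to a dimmer Hmox1 probe, with a difference of -0.49 ± 0.55 (SE). Nor does it extend to the dimmest Tfrc probe, at -0.35 ± 0.55. Of 23 NRF2 target genes, 17 were higher in LFA (median 0.18; 0.08 without LFA mice 1 and 3). Gsta3, a glutathione transferase of liver, and Gclc, of glutathione synthesis, led with 1.59 and 1.01 and were highest in LFA mice 1 and 3, and Gpx2 stood at the other end. Of 13 metallothionein and heat shock genes, 12 were higher in LFA, by a median of 0.13.

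Cxcl5, Ccl8, Calca, and Cdkn2a were called higher than control in both long-fiber groups, and their differences between those groups were smaller. Choosing genes called in both groups favors such a result, so it does not show that the fibers act alike. Cxcl5 and Ccl8, chemokines for neutrophils and monocytes, were higher than control by 5.68 and 4.55 in LFA and by 5.47 and 5.10 in NTL (adjusted p from 2.4e-05 to 3.8e-04, limma), against differences between the fibers of 0.21 and -0.55. The intervals were wide, from -1.32 to 1.74 for Cxcl5 and from -1.61 to 0.51 for Ccl8. The cytokines Il6 and Il1b differed by -0.36 and 0.36, the osteopontin gene Spp1 by -0.33. Leaving out single mice turned the sign of Il6 (-0.70 to 0.07) and Il1b (-0.22 to 0.69) and moved Spp1 from -0.86 to -0.06. The serum amyloid Saa3 differed by -0.98 and Jchain, of plasma cells, by -0.32. Calca, which encodes the calcitonin peptides, was higher than control by 5.43 in LFA (adjusted p = 1.5e-04) and by 6.85 in NTL (adjusted p = 9.8e-06, limma), with 1.42, 3.65, -0.08, and 2.83 in LFA and 3.38, 4.01, 1.98, and 4.13 in NTL. Its difference of -1.42 was -0.13 without LFA mice 1 and 3. Of 29 chemokine genes, 22 were higher in NTL (median -0.16), and 23 were higher in LFA without LFA mice 1 and 3 (median 0.23). Of 28 interferon-stimulated genes, 20 were higher in LFA (median 0.10), and 27 without these mice (0.45), but with slide as a block 11 were higher in LFA and 17 in NTL (median -0.02), and without NTL mouse 3 the median was -0.02 as well. Cdkn2a, the tumor suppressor locus of p16 and p19, was higher than control by 2.74 in LFA (adjusted p = 0.0027) and by 2.66 in NTL (adjusted p = 0.0016, limma) and differed by 0.09 between them (95% interval -0.85 to 1.02). The proliferation marker Mki67 differed by 0.93 (95% interval -0.28 to 2.13). NTL mouse 3, at -0.94, lay below the range of 0.78 to 2.47 of the other 7 mice. Mki67 had the largest lean to LFA among 23 mitosis and cell division genes, of which 14 leaned to NTL and 9 to LFA. The median of this list was -0.08, or -0.09 without LFA mice 1 and 3 and -0.15 with slide as a block. Without NTL mouse 2 it was 0.19. Bub1b, of the same list, separated the mice with NTL higher (difference -0.34), and no gene of the list was called.

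The lean of the long fibers was set against the same materials in short form, SFA minus NTS, in 8 other mice. SFA mouse 2, which carried epidermal transcripts, is among them. No probe was called there (0%; 2154 probes, 5.83%, at an unadjusted p under 0.05), and the material averaged over both lengths gave 0 as well (0%; 1271 probes, 3.44%, at an unadjusted p under 0.05). The difference of the material effect between lengths also gave 0 called probes (1278, 3.46%, at an unadjusted p under 0.05, limma). Between the short fibers, 800 of 36856 probes separated (2.17%), more than between the long ones. Of the 143 probes with LFA above NTL, 64 (44.8%) had SFA above NTS, and of the 206 with NTL above LFA, 96 (46.6%) had NTS above SFA, while 54.5% of all probes had the same sign in both. The first set had a median of 0.62 in the long fibers and -0.03 in the short, and the second had -0.60 and 0.04. Chil4 had 0.43 and Hoxc9 -0.57 in SFA minus NTS, each opposite in sign to the long fibers, whereas the mesothelium list had a median of 0.45 and the neutrophil list 0.16. Over all 36920 probes, the Pearson r between the long and short differences was 0.00447, a description across probes of mice that are not shared.

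**Figure D5:**
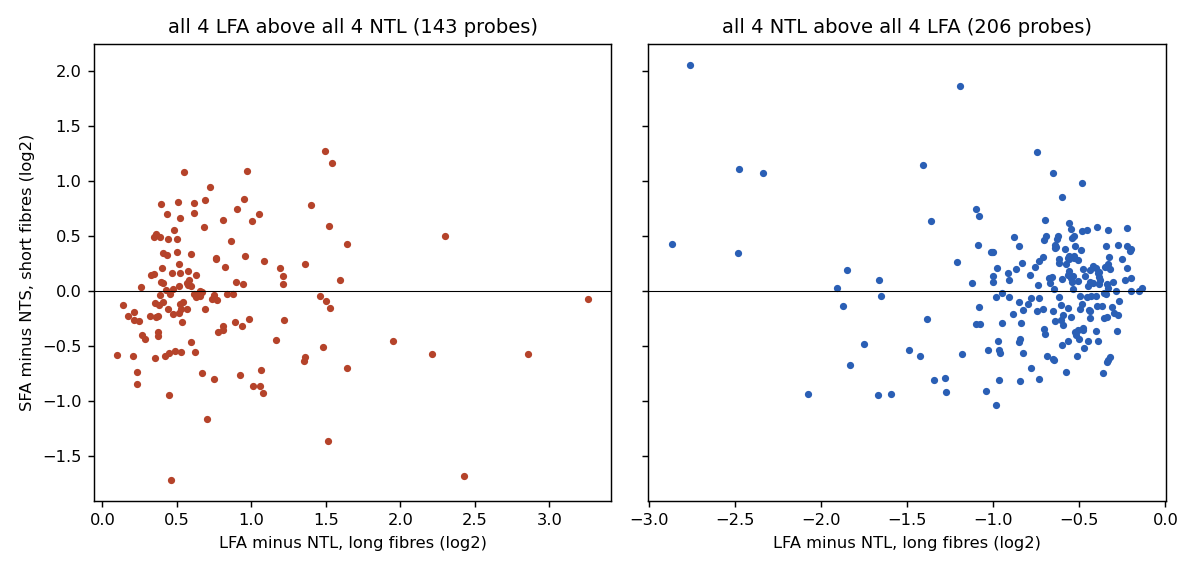
Difference of SFA minus NTS (vertical axis, log2) against LFA minus NTL (horizontal axis, log2) for the 143 probes with all LFA mice above all NTL mice (left) and the 206 with the reverse (right); each point is a probe and 4 mice stand behind each group. The points scatter about the horizontal line at 0 in both panels, with medians of -0.03 and 0.04.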

How the data were processed

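Diaphragm RNA, labeled with Cy3, was put on 60K mouse arrays by the authors, who deposited what the scanner software wrote (Agilent Feature Extraction 10.7.3.1, per the submitters' processing notes). The deposited intensity of a spot had its background subtracted by that software. A table of normalized log2 values deposited by the authors holds group means alone and was used to check the normalization.

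Here, outlier and control spots were left out, spots were averaged by probe, and each array's 75th percentile was subtracted from the log2 intensities. Symbols came through RefSeq accessions (27312 probes) or symbols (4082); 24287 probes stayed unnamed. Positions are those of the files, which do not say in which part of a transcript a probe lies.

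In limma 3.58.1 (R 4.3.3), a linear model fitted a mean for each group to all 20 arrays. Files were read with data.table (version 1.17.8) and with Python 3.11.15 (pandas 2.3.3, numpy 2.4.6), and figures used matplotlib 3.10.9. The number of arrays limits the precision. The steps were tested on simulated data, in which 12 of 36568 unchanged probes (0.0328%) were called. Replicate numbers do not pair the mice: deviations of equal numbers correlated at 0.27, -0.26, -0.01, and -0.27. The arrays lay on 3 slides; LFA mice 3 and 4 shared no slide with NTL.

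The comparison, the 47 gene lists, and the alternatives were chosen with earlier results of these data known, and the lists of cilium and epidermal genes were added after the values were seen. Genes named are the 12 with the largest difference in each direction among those that separate the mice and are well above background in the higher group, up to 3 separating genes or else the most different gene of each list, 24 genes chosen for their known roles, and the 3 probes in each direction with the smallest p. The brightest probe stands for a gene, and folds are lower bounds where a group was not well above background.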

Additional observations from a re-analysis of the deposited data

Results flagged for a closer look

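In 20 of 190 pairs of a named gene and a fiber group, and in 3 of 94 pairs of a list and a fiber group, the highest or lowest mouse stood away from the others, with a gap to its nearest neighbor that took more of the range of its group than Dixon's 95% critical value for 4 samples. Chance gives about 1 in 20 groups. The share of the range is given for each, and causes were not tested.

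NTL mouse 3 was high for Gpx2 (0.960), Gpnmb (0.931), and Itgax (0.877). It was low for 4833411C07Rik (0.967), H2-M10.1 (0.923), Ccdc173 (0.914), and the collagen chains as a list (0.854). Among the long-fiber mice, it is the one with the epidermal transcripts, which SFA mouse 2 also carried. NTL mouse 2 was low for Ier2 (0.963), H2-DMb2 (0.931), Cd3g (0.894), Ndufa4 (0.867), Ptger4 (0.860), and Mup1 (0.849) and high for Hsp90aa1 (0.918), Wt1 (0.891), and Sh2d1b1 (0.884). The first 5 of these are among the 511 probes that were also low on LFA mouse 3. NTL mouse 1 was high for Hoxc9 (0.861).

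In LFA, mouse 4 was high for Cxcl5 (0.874), Il1b (0.867), and the list of osteoclast and giant cell genes (0.920). LFA mouse 3 was low for Ndufa4 (0.864) and for a Rgs9bp probe (0.859), and LFA mouse 2 was low for the mesothelium list (0.857). The difference of the material effect between long and short fibers was called for 0 probes.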

How the results depend on the processing

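Between LFA and NTL, 0 probes were called in every alternative except 1: without LFA mouse 2, 6 were called, so that leaving out single mice gave 0 to 6. The counts at an unadjusted p ran from 178 (slide as a block) to 4373 (array weights). Between SFA and NTS, quantile normalization gave 1 and array weights 5879; the material over both lengths gave 3270 with array weights. For LFA against control (1462), the count was 961 with no filter, 922 with slide as a block, 586 with only the groups compared, 8 with the methods' test, 5204 with array weights, and 847 without LFA mice 1 and 3, and 467 to 2682 when leaving out 1 mouse. For NTL against control (2511), it was 1325 with slide as a block, 494 with the methods' test, 4485 with array weights, and 1376 with array brightness as a covariate, and 1399 to 3078 when leaving out 1 mouse. The 349 separating probes became 198 when well above background on all arrays, 166 averaged by gene, 2776 without the 5 arrays with shared low probes, and 553 to 2888 when leaving out 1 mouse, with fewer mice making separation easier.

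With replicate number as a block, LFA against NTL again had 0 called probes and LFA against control had 1240, and the block changed no other call; equal numbers do not pair the mice. The sign of the difference held in every alternative for 72 of 95 named probes and for the median of 11 of 47 lists, mesothelium, neutrophil, and MHC class II among them. Settings chosen after seeing the data were a liver covariate and leaving out sets of mice. The sets were LFA mice 1 and 3, NTL mouse 3 with SFA mouse 2 (both with epidermal transcripts), or the 5 arrays. Dim probes limit the comparison, since background correction moved Hoxc9 from 2.86 to 0.73.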

Other observations

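Without LFA mouse 2, the 6 probes called between LFA and NTL were all higher in NTL (smallest adjusted p = 0.0195, limma). They were Dll3, a ligand of the Notch pathway, 1700012I11Rik, 1700022N22Rik, and 3 probes with no gene name. Dll3 had levels of -6.65, -3.48, -6.60, and -6.41 in LFA and -3.90, -2.97, -4.59, and -4.31 in NTL, so LFA mouse 2 lay within the NTL mice. 1700012I11Rik had -1.11, 1.39, -3.18, and -2.66 in LFA and 1.44, 0.41, 2.33, and 1.05 in NTL. This set was found by leaving out the mouse and is a description.

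The 511 probes were low on 5 arrays, 1 in each group of the series (LFA 3, NTL 2, control 2, SFA 1, and NTS 4). Relative to their mean over all arrays of the series, they lay at a median of -2.61 on LFA 3 and -1.85 on NTL 2. A single probe was high in the same way. Among them were the T cell receptor chain Cd3g, with -1.46, -0.04, -5.37, and -3.13 in LFA and -0.13, -5.09, -0.05, and 0.46 in NTL, and Ndufa4, of the respiratory chain, with 6.87, 5.99, 0.41, and 6.10 in LFA and 6.70, 3.31, 6.59, and 6.25 in NTL. Without the 5 arrays, 0 probes were called between LFA and NTL and 849 had an unadjusted p under 0.05.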
